A study of Homo sapiens and Mus musculus with 66 samples.

Results

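In HCT116 cells, 3078 windows of 100 kb lay in the strong lamin-B1 cTSA-seq state at 180 min after mitotic release and in sorted G1, S and G2 cells, and outside that state at 90 min after release. They were chosen by these calls alone, inside the deposited region lists for 180m G1, G1, S and G2 and outside the list for 90m G1, among the 30970 windows that cover hg19 (autosomes, X and Y). The 4 later lists shared 4685 windows, here called stable, so that the chosen windows were 65.7% of them and the other 1607 were called at all 5 stages. The counts of the 5 stage lists that follow are therefore a description of the choice and carry no test. Absent means not called in the strongest of the 3 states of the authors' Hidden Markov Model. A window absent at 90 min can have had an intermediate signal, or a call in 1 replicate only, since the lists hold region borders and no signal.

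Lamin-B1 cTSA-seq labels chromatin with biotin by a peroxidase coupled to an antibody against lamin-B1, and the biotinylated chromatin is pulled down with streptavidin, after which its DNA is sequenced beside that of the input. The nuclear lamina (NL) is a meshwork of lamin proteins under the inner nuclear membrane, and the large stretches of chromatin that touch it are known as lamina-associated domains, or LADs. LADs are mostly late replicating, poor in genes and rich in A and T. The envelope and lamina come apart in mitosis and are rebuilt on the chromosomes as cells leave it, so contacts with the NL have to form again in each G1 phase.

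HCT116 cells come from a human colorectal carcinoma. For the 90m G1 and 180m G1 samples, cells were held in nocodazole, a drug that blocks cells in mitosis, for 16 h by the labels, shaken off, released for 90 or 180 min and sorted for G1 DNA content. The G1, S and G2 samples were sorted by DNA content from cells that had not been blocked, so that the drug, the shake-off and the time since mitosis cannot be told apart between the release samples and these. The unsorted HCT116 samples were a bulk sample and samples of 1000000, 200000 and 50000 cells. K562 is a human leukemia cell line, for which lists from cTSA-seq and from published TSA-seq, the method that cTSA-seq derives from, were used. The labels give 2 replicates for each stage, and each stage has 1 list already merged over them. There is thus no spread between replicates, no p-value is given, and spreads are those over chromosomes. Neighbouring windows are not independent, and the sequencing depth behind a call is unknown.

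The DNA of these windows is shown by the middle 200 bases of the central window of their 3 longest stretches, on the plus strand of hg19, with each CpG in capitals. Those of chromosomes 5 and X show A and T runs, with 1 and 0 CpG. That of chromosome 4 is richer, with 39.5% GC and 2 CpG.
Chromosome 5 stretch, chr5:26449901-26450100: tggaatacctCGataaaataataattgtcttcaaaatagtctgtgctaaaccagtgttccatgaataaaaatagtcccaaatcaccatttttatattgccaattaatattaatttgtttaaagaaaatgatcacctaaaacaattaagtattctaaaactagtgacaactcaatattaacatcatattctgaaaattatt
Chromosome 4 stretch, chr4:61849901-61850100: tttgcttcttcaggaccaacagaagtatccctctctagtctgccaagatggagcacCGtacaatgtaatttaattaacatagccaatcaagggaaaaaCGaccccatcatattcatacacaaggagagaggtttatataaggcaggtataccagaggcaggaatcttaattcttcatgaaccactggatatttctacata
Chromosome X stretch, chrX:88849901-88850100: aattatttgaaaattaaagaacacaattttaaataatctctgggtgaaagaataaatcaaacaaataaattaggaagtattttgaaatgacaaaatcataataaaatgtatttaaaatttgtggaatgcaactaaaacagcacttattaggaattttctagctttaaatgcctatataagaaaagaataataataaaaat
The same middle bases of the 3 longest stretches called at all 5 stages are given for comparison.
Chromosome X stretch called at 90 min, chrX:142949901-142950100: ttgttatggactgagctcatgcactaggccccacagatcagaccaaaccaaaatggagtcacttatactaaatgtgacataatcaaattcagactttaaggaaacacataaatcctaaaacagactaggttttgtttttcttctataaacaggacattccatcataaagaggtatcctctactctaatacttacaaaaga
Chromosome 10 stretch called at 90 min, chr10:108949901-108950100: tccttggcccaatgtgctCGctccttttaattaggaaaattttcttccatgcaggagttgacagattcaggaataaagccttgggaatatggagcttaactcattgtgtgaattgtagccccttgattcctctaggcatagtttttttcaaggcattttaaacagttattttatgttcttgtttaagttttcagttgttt
Chromosome 3 stretch called at 90 min, chr3:2149901-2150100: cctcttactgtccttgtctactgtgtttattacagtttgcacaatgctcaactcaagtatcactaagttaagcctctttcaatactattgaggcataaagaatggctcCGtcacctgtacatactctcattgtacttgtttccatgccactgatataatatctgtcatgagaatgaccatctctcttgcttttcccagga
G and C made up 25%, 39.5% and 20.5% of the first 3 sequences and 35%, 36.5% and 39.5% of the second 3. With at most 2 CpG in any of them, single sequences do not tell the classes apart, and the comparison below rests on all windows.

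The members formed 232 stretches of consecutive windows, with a median size of 0.9 Mb and quartiles of 0.475 and 1.7 Mb. The 45 stretches over 2 Mb held 1647 members, or 53.5% of them. The longest, 9.8 Mb at chr5:21500001-31300000, had a GC content of 35.1% and held CDH12, CDH9, CDH10 and PRDM9. The first 3 encode cadherins, which bind neighbouring cells to each other, and PRDM9 marks recombination sites in meiosis. The next, 7.1 Mb at chr4:58300001-65400000 with 35.2% GC, held ADGRL3, an adhesion receptor of neurons, and TECRL. A stretch of 6.9 Mb at chrX:85400001-92300000 with 35.9% GC held 6 protein-coding genes, of which the longest were PCDH11X, a protocadherin, DACH2, a transcriptional cofactor, KLHL4 and CPXCR1. The fourth, 6.3 Mb at chr11:37000001-43300000 with 36.6% GC, held only LRRC4C, a synaptic adhesion protein. The fifth, 6.1 Mb at chr16:58900001-65000000 with 36.7% GC, held only the cadherin gene CDH8. In HCT116 bulk all windows of these 5 stretches were called, and in K562 cTSA-seq between 85.7% and 100% were.

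Of the 232 stretches, 41 (17.7%) touched a window called in 90m G1. Of the 3078 members, 42 (1.36%) abutted a window called in 90m G1 and 304 (9.88%) lay within 1 Mb of one, while 1486 (48.3%) were 10 Mb or more away. Chromosome 21, with 32 members, had no window called in 90m G1. On the other chromosomes the median gap to the nearest such window was 9.4 Mb and the largest 58.6 Mb. No member lay in a gap of up to 500 kb between regions called in 90m G1, so that none was a small hole in an otherwise called region.

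By the rule, a window just outside a stretch and not called at 90 min misses at least 1 of the 4 later lists. Calls at no more than 3 later stages there thus follow from the choice. Of 464 stretch ends, 41 met a window called at all 5 stages and 1 met a window called at 90 min and not at all later stages. At the other 422 ends, the flanking window was called at 3 of the 4 later stages in 216 cases, at 2 in 90, at 1 in 37 and at none in 79. These are counts of ends, so a single window between 2 stretches counts at each of them. The S list held the flanking window at 59.7% of these ends and the G1 list at 44.5%, with 180m G1 at 49.3% and G2 at 51.4%. In HCT116 bulk it was called at 79.6% of them, a share between those of the members and of the rest of the genome.

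Whole stable regions were mostly either absent or called at 90 min. Of 316 regions of consecutive stable windows, 192 were absent throughout, 90 were called throughout and 34 were called in part. The absent regions had a median size of 0.9 Mb, the called ones of 1 Mb and the mixed ones of 1.6 Mb, and 85.8% of the members lay in regions absent throughout. In the mixed regions with a single border, the part called at 90 min faced the nearer chromosome end in 17 and pointed away from it in 10, and 7 had several borders.

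**Figure D1:**
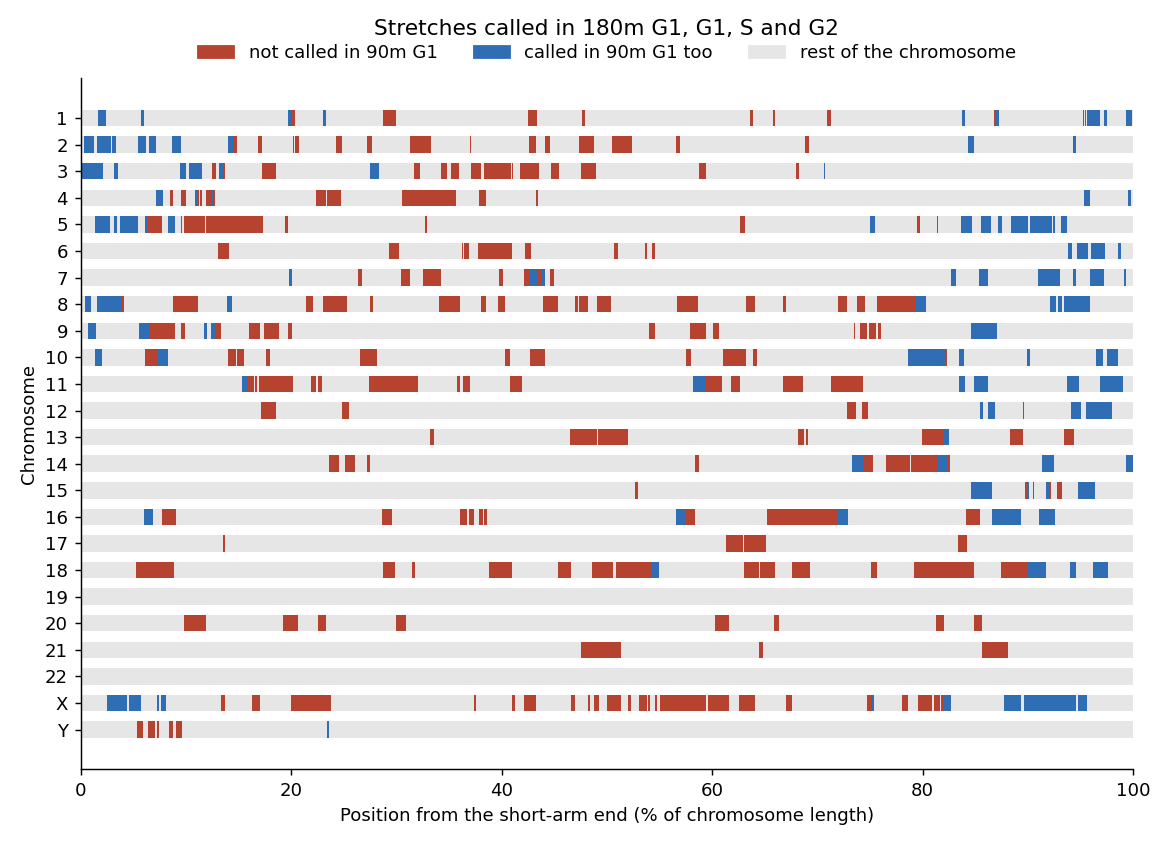
Stretches of stable windows along each chromosome, as percent of its length from the short-arm end, not called (red) or called (blue) in 90m G1. Red stretches are scattered over the interior of most chromosomes and blue ones lie mainly near the ends, while chromosomes 17, 20 and 21 have red stretches only and 19 and 22 have none.

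The choice did not use position, and the members lay farther inside the chromosomes than the other stable windows. The members had a median distance to the nearest chromosome end of 40.45 Mb, with quartiles of 25.95 and 65.55 Mb, against 11.35 Mb for the windows called at all 5 stages and 34.0 Mb for all windows with sequence, that is, those with at most 50% undetermined bases. The 17751 windows called at no stage lay as far inside, with a median of 41.15 Mb, so that the interior position sets the members apart from the windows called at 90 min and not from uncalled chromatin. Within each of the 16 chromosomes with at least 20 windows of each kind, the median distance was larger for the members, by 5.35 Mb on chromosome 14 up to 83.2 Mb on chromosome 2. Among chromosomes with both kinds but fewer windows, it was larger for the members on chromosome 13 (53.65 against 20.5 Mb). It was smaller on chromosome 15 (8.08 against 10.2 Mb) and on Y (4.15 against 13.95 Mb). The ranges still overlapped on most chromosomes. Only on chromosomes 6 and 12, of 19 that held both kinds, was the member nearest to an end farther in than the farthest window called at 90 min.

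The share of stable windows that were absent at 90 min rose with distance, though not at every step. Within 5 Mb of an end, 17 of 347 were absent (4.90%), and at 5 to 10 Mb 130 of 526 were (24.7%). At 10 to 15 Mb the share was 38.7% and at 15 to 20 Mb 33.6%. It was 66.4% at 20 to 30 Mb, 90.4% at 30 to 40 Mb and 89.5% at 40 to 60 Mb. Beyond 60 Mb, 980 of 994 stable windows were absent, or 98.6%. Chromosomes differed widely within a class. At 20 to 30 Mb, the 19 chromosomes with at least 10 stable windows ranged from 0% to 100%.

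**Figure D2:**
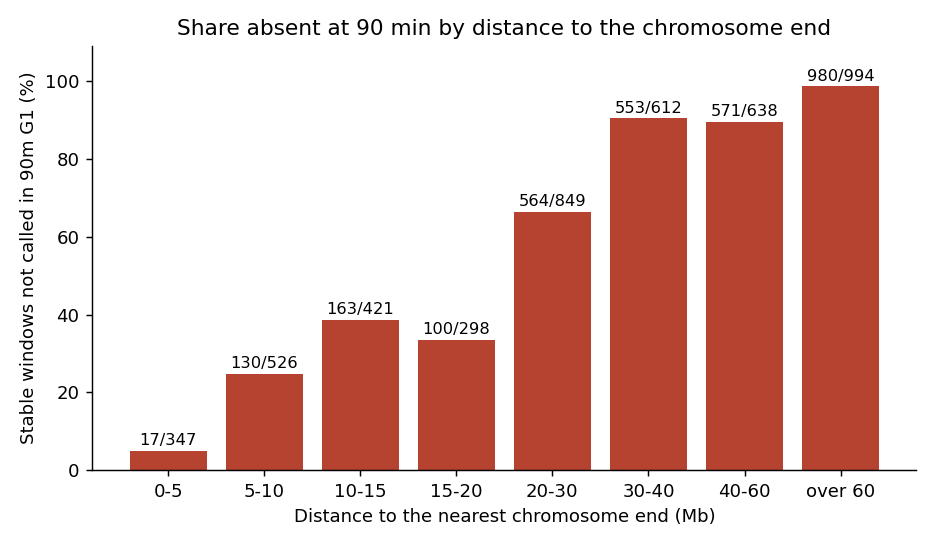
Stable windows not called in 90m G1, in percent (bars, from 0), by distance to the nearest chromosome end in Mb, with members over stable windows above each bar. The share goes from 4.90% within 5 Mb to 98.6% beyond 60 Mb and is flat or slightly lower between 10 and 20 Mb and between 30 and 60 Mb.

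On the scale of the chromosome arm the difference was as clear. Position was set to 0% at the chromosome end and 100% at the centromere gap, leaving out chromosome Y. The median was 64.3% for the members, 13.7% for the windows called at all 5 stages and 50.0% for all windows with sequence. In the outermost 20% of the arms 70 of 1132 stable windows were absent (6.18%), in the next 20% 57.3% were, in the middle 20% 90.7%, then 96.2%, and in the 20% beside the centromere 959 of 982 (97.7%). Members were found on both arms, 1270 on short and 1795 on long arms.

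Arms of 1 chromosome could differ. On chromosome 5, 165 of 245 stable windows of the short arm were absent (67.3%) against 21 of 153 on the long arm (13.7%). On chromosome 7 the short arm had 90.6% and the long arm 23.8%, and on chromosome 12 the short arm had all 27 absent and the long arm 22.8%. On chromosome 2 the order was the other way, with 45.2% on the short and 86.9% on the long arm. Over the 19 chromosomes with at least 50 stable windows the share absent had a median of 66.8%. It was highest on chromosome 20, where all 54 were absent, and lowest on chromosome 15, where 11 of 55 were (20%). All 38 stable windows of chromosome 17 and all 32 of chromosome 21 were absent too, and chromosomes 19 and 22 had no stable window.

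The exceptions were few and lay in a limited number of places. The 147 members within 10 Mb of an end fell into 17 runs on 10 chromosomes, and 47 of them were on chromosome 18. The largest such run, chr18:4100001-6900000, held L3MBTL4, EPB41L3 and ARHGAP28 among 6 protein-coding genes. A run of 1.3 Mb on chromosome 20 held BMP2, a secreted bone morphogenetic protein, and one of 1.2 Mb on chromosome 21 held DSCAM, a neuronal adhesion gene. In the other direction, 81 windows called at all 5 stages lay over 40 Mb from an end, in 11 runs on chromosomes 1, 3, 5, 7 and 11. The 2 largest, each of 1.6 Mb, held LRTM1 and WNT5A, a signalling ligand, on chromosome 3 and TENM4, a teneurin, on chromosome 11. These genes were looked up after the values were seen. The median GC was 37.8% in the 147 exceptional members and 41.3% in the 81 exceptional windows called at 90 min.

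The members were also poorer in G and C. Their median GC was 36.5% (10th to 90th percentile 34.5% to 39.4%), against 39.4% for the windows called at all 5 stages, 39.8% for all windows with sequence and 46.1% for the 2712 windows called in 90m G1 and at no later stage. The member median was lower on 16 of 16 chromosomes, by 1.29 percentage points on chromosome 3 to 5.99 on chromosome 11. CpG dinucleotides numbered 6.17 per kb in the members, 8.38 in the windows called at all 5 stages and 9.85 over all windows, and the ratio of observed to expected CpG was 0.182, 0.210 and 0.236. The spread within the members was wide, from 32.2% to 50.2% GC, and 1832 of them (59.5%) were under 37%, as were 15.0% of the windows called at all 5 stages.

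Stable windows under 35% GC were absent at 90 min in 540 of 552 cases (97.8%), and those of 44% or more in 20 of 189 (10.6%), with a fall at each of the steps between. GC and distance went together, and each still separated the classes within a class of the other. Within 10 Mb of an end, the share absent was 72.3% (34 of 47) under 36% GC and 8.35% (35 of 419) at 40% GC or more. Over 40 Mb from an end it was 100% (603 of 603) under 36% GC and 64.6% (102 of 158) at 40% or more. The share went down with distance at 2 steps, from 72.3% to 68.2% between the first classes under 36% GC and from 68.8% to 64.6% between the last classes at 40% GC or more. In every distance class the median GC of the members was lower, by 1.84 to 4.84 percentage points. GC can also bear on how reads are recovered and counted, and its part in the calls at 90 min was not tested.

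**Figure D3:**
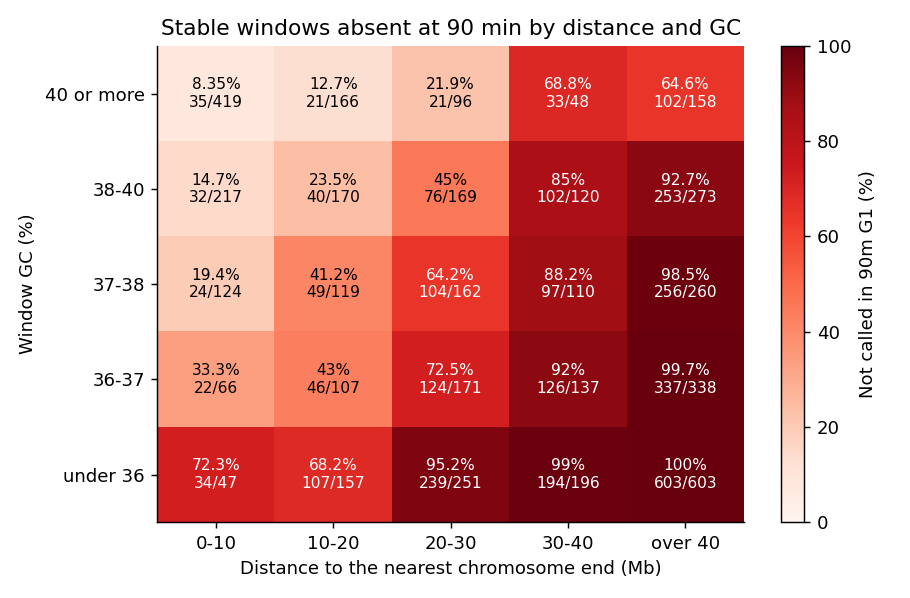
Stable windows not called in 90m G1, in percent (colour and first line of each cell), by distance to the nearest chromosome end in Mb and window GC in percent, with members over stable windows on the second line. The share is lowest, 8.35%, within 10 Mb of an end at 40% GC or more and reaches 100% over 40 Mb from an end under 36% GC.

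Outside the synchronised and sorted samples, nearly all members were called in HCT116 cells. The choice already required calls in sorted G1, S and G2 cells of this line, so high shares in unsorted cells largely follow from it. The bulk list held 3029 of 3078 (98.4%), where 29% of all windows with sequence were called, and 99.6% of the windows called at all 5 stages. The list of 1000000 cells held 98.9% of the members (22.8% of all windows), that of 200000 cells 99.5% (23.6%) and that of 50000 cells 99.9% (24.5%). All 4 lists held 2986 members (97.0%), against 19.5% of all windows, and no member was missing from all 4. For the rule's own lists, which fix the members' state, 18.2% of all windows were in the 90m G1 list, 22.1% in that of 180m G1, 21.7% in that of G1, 24.1% in that of S and 21.5% in that of G2.

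Windows called at all 5 stages were held less fully than the members by the lists of set cell numbers, at 91.6%, 94.7% and 98.1% for 1000000, 200000 and 50000 cells, so that the gap was widest in the list of most cells. The labels give no replicate pull-down for 1000000 cells, and replicates for 200000 and 50000 cells. Cell number and replication thus cannot be told apart here. That difference lay at high GC. Between 36% and 37% GC the list of 1000000 cells held 99.5% of the members and 100% of the windows called at 90 min, and at 40% GC or more it held 93.9% and 82.1%. In bulk the members were the lower of the 2 on 13 of 16 chromosomes, by a median of 0.786 percentage points.

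The 49 members missing from bulk formed 23 runs on 16 chromosomes, and each run touched the border of a stretch. Some runs were whole stretches, as were those named here, and these touch a border by definition. The longest was chr14:27000001-28000000, 1 Mb with 34.9% GC and no whole protein-coding gene, which was called in both K562 lists. The next were 0.5 Mb at chr20:14200001-14700000 with FLRT3, a cell adhesion gene, and 0.4 Mb at chr1:164000001-164400000 without a whole protein-coding gene. Both were called throughout in the K562 lists as well.

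**Figure D4:**
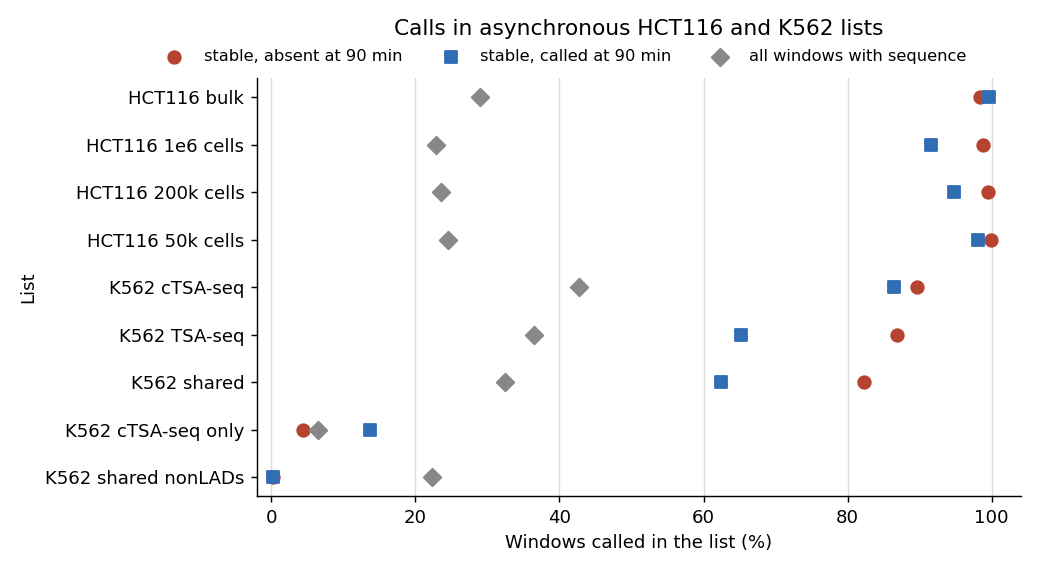
Percent of windows called in 4 unsorted HCT116 lists and 5 K562 lists, for stable windows absent at 90 min (red circles), stable windows called at 90 min (blue squares) and all windows with sequence (grey diamonds). Red circles lie at 98.4% or more in the HCT116 lists and at 89.6% in K562 cTSA-seq, and at or below the grey diamonds only in the lists of regions found by cTSA-seq alone and of shared nonLADs.

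Most members were called in K562 cells too. The K562 cTSA-seq list held 2758 (89.6%, against 42.7% of all windows) and the TSA-seq list 2673 (86.8%, against 36.5%). The distance from all windows depended on GC. Under 36% GC, cTSA-seq held 91.3% of the members and 84.6% of all windows, and TSA-seq 97.4% and 92.8%. At 40% GC or more, cTSA-seq held 78.8% and 17.5%, and TSA-seq 16.98% and 3.60%. The list of LADs shared by both methods held 2532 members (82.3%, against 32.5%). The list of regions found by cTSA-seq alone held 137 (4.45%), below its background of 6.45%. The list of nonLADs shared by both methods held 5 (0.162%), where 22.3% of all windows were called. In all, 2465 members (80.1%) were called in all 4 unsorted HCT116 lists and in both K562 lists, against 13.9% of all windows. Chromosomes differed more in K562 than in HCT116. Over the 16 chromosomes, K562 cTSA-seq held from 51.1% to 99.2% of the members.

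The windows called at all 5 stages were held by the K562 cTSA-seq list at 86.4% and by the TSA-seq list at 65.2%. The members were the higher in TSA-seq on 14 of 16 chromosomes, with a median difference of 23.5 percentage points, and in cTSA-seq on 8 of 16. At matched GC the order in TSA-seq was the reverse. The members were lower in all 5 GC classes, by 1.34 percentage points under 36% GC and by 12.2 between 38% and 40%. TSA-seq held 97.4% of the members under 36% GC and 16.98% of those at 40% or more. In cTSA-seq the same classes had 91.3% and 78.8%, and the members were lower than the windows called at 90 min in 4 of 5 classes, by at most 4.16 percentage points. The larger share of members than of windows called at all 5 stages in the K562 TSA-seq list therefore did not hold within GC classes.

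**Figure D5:**
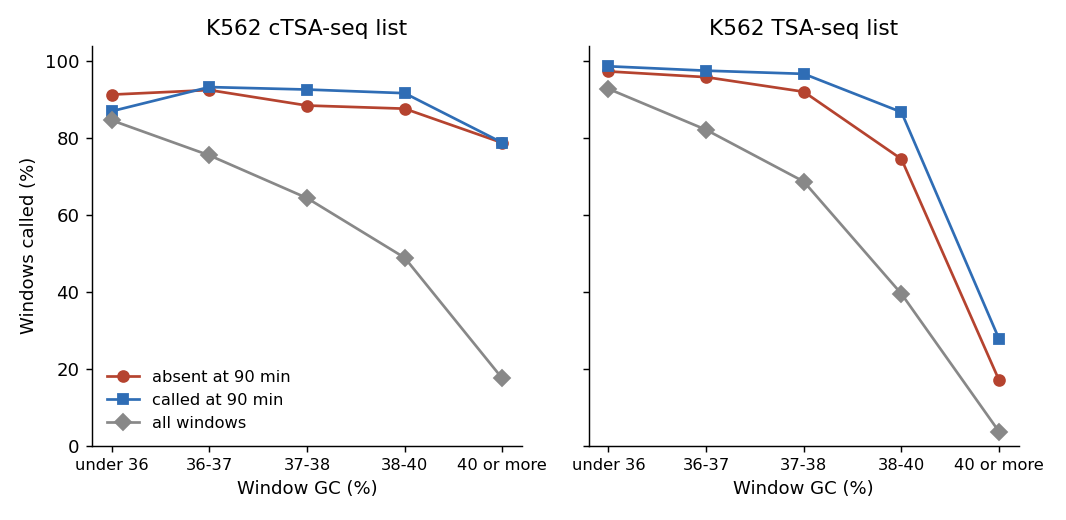
Percent of windows called in the K562 cTSA-seq list (left) and TSA-seq list (right) by window GC in percent, for stable windows absent at 90 min (red), stable windows called at 90 min (blue) and all windows with sequence (grey). In TSA-seq all 3 lines fall steeply, with the members going from 97.4% under 36% GC to 16.98% at 40% or more, and the red line lies under the blue one in each class.

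Neither K562 list held 179 members (5.82%), against 53.2% of all windows and 10.95% of those called at all 5 stages. DNA copy number in K562 cells was not examined, nor was read cover in windows without a call. Windows with little DNA or few reads thus could not be told from windows away from the NL. Both K562 lists held all 13 chromosome Y members, and how reads were placed there was not tested. The 179 members in neither list formed 45 runs on 17 chromosomes. The longest, looked up after the values were seen, were 1.7 Mb at chr9:24900001-26600000 with TUSC1, a tumor suppressor candidate, 1.3 Mb at chr18:52800001-54100000 with TCF4, a basic helix-loop-helix transcription factor, and 2 runs of 1.2 Mb each, chr12:23000001-24200000 without a whole protein-coding gene and chr8:105300001-106500000 with DPYS, LRP12 and DCSTAMP. Shorter runs near that of chromosome 9 were chr9:23000001-23600000, chr9:23800001-24000000 and chr9:24600001-24800000. The 5 members in the shared nonLAD list formed 2 runs. The first, chr9:25600001-25900000, lay inside the 1.7 Mb run of chromosome 9 and held TUSC1, and the second, chr16:8000001-8200000, held no whole protein-coding gene.

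The members were poor in genes. A gene counted as inside with 80% of its length or more, which gave 305 protein-coding genes, or 0.991 per Mb, against 1.36 per Mb in the windows called at all 5 stages, 10.4 in those called in 90m G1 only and 7.02 over all windows with sequence. These 305 genes were 1.51% of the 20163 annotated, although members made up 10.7% of the windows with sequence. No start site of a protein-coding gene lay in 91.7% of the members, as in 89.4% of the windows called at all 5 stages and 62.2% of all windows. Long noncoding RNA genes numbered 3.11 per Mb, against 4.57 in the windows called at all 5 stages and 6.51 over all windows. Pseudogenes numbered 3.34 per Mb, more than the 2.58 in the windows called at all 5 stages and fewer than the 5.35 over all windows. Of the 232 stretches, 115 held no whole protein-coding gene.

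Among the few genes, long ones took a large share. A length over 500 kb was found in 42 of 305 (13.8%), much as in the windows called at all 5 stages (30 of 218, 13.8%) and unlike all windows with sequence (1.60%). The 42 were 13.0% of all 324 protein-coding genes of that length, close to the 10.7% of windows that were members. The longest was DMD, the dystrophin gene, 2242 kb at chrX:31115794-33357726. EYS, which encodes a matrix protein of photoreceptors, followed with 1987 kb at chr6:64429876-66417119. ROBO2, a receptor for axon guidance by SLIT proteins, spanned 1743 kb at chr3:75955846-77699115. The others of the 10 longest were GPC5, a glypican (1475 kb), CTNNA2, a neuronal catenin (1464 kb), DPP10, a partner of potassium channels (1403 kb), LRRC4C (1346 kb), CNTN5, a contactin (1338 kb), CSMD3 (1214 kb) and DCC, the netrin receptor (1196 kb). At least 80% of each gene lay in members, and the remainder may cross a border.

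The gene families considered are each described by how many of their genes lay in members, beside the 1.51% of all protein-coding genes. Genes of a cluster are neighbours and were not counted as independent. Of 22 families, 9 had genes in members and 13 had none. Olfactory receptors, the odor receptors of the nose, had 70 of 414 genes there (16.9%), with 52 on chromosome 11, 11 on chromosome 1 and 7 on chromosome 9, and 45 (10.9%) in windows called at all 5 stages. OR6N1, OR5AS1, OR6P1 and OR6Y1 were the longest of the 70. Type II cadherins had 7 of 13 genes in members (53.8%), with CDH18, CDH12, CDH9 and CDH10 on chromosome 5, CDH7 and CDH19 on chromosome 18 and CDH8 on chromosome 16. CDH11 was the only one in windows called at all 5 stages.

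Contactins and their CNTNAP relatives had CNTN5, CNTNAP5, CNTN3 and CNTNAP4 in members (4 of 13) and CNTNAP2, CNTN4 and CNTN6 in windows called at all 5 stages, while 5 lay in windows called at no stage. SLITRK and LRRTM genes, which encode synaptic adhesion proteins, had LRRTM4 and LRRTM1 in members and SLITRK4 and SLITRK2 in windows called at all 5 stages, while the other 6 of 10 lay in windows called at no stage. GABA-A receptor subunits had GABRA2, GABRG1 and GABRA4 of chromosome 4 in members (3 of 16). Neither neurexins and neuroligins nor ionotropic glutamate receptors had a gene in members, with 1 each in windows called at all 5 stages, NLGN4X and GRIA1.

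Other families were mostly elsewhere. Potassium channels had 7 of 94 genes in members (7.45%), among them KCNN2, KCNB2, KCNU1 and KCNJ16, and MAGE and SSX genes, which are expressed in testis and some tumors, had 5 of 35, all MAGEB genes of chromosome X. Protocadherins outside the cluster had PCDH11X and PCDH17 of 13. ZNF genes, for zinc finger proteins, had 6 of 527 (1.14%), below the share of all genes, with 5 of the 6 on chromosome 7. No gene of the clustered protocadherins, taste receptors, UGT2 genes, keratins, keratin-associated proteins, beta-defensins, type I interferons or HOX genes lay in members. The same held for cytosolic ribosomal proteins (0 of 86), proteasome subunits (0 of 39) and the replication licensing genes MCM, ORC and CDT1 (0 of 17). With 1.51% of all protein-coding genes in members, few or no genes would fall there from families of these sizes. Windows called at all 5 stages held 0 genes of the ribosomal, proteasome and licensing families as well.

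In HCT116, where the choice already required calls in sorted cells, the genes were called as fully as their windows. In K562 they were called less fully. By the same 80% rule, 299 of the 305 lay in the HCT116 bulk list, against 11.1% of all protein-coding genes, and all 305 in that of 50000 cells, against 5.98%. In K562, 251 (82.3%) lay in the cTSA-seq list, against 11% of all, and 229 (75.1%) in the TSA-seq list, against 9.21%. No part of 34 genes (11.1%, against 85.1% of all) lay in either K562 list, among them TCF4, STXBP6, MITF, a transcription factor of melanocytes, and DPYS, the longest 4. All 7 type II cadherin genes, the 4 contactin and CNTNAP genes and the 3 GABA-A receptor genes lay in both K562 lists. Of the 70 olfactory receptor genes 61 lay in the cTSA-seq list, and 5 of the 11 on chromosome 1, led by OR6N1, were in neither. The 5 ZNF genes of chromosome 7, among them ZNF736, ZNF727, ZNF679 and ZNF722, were in neither as well.

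The DNA before the starts of these genes was less marked by CpG than that of other genes. The 250 bases before the annotated start had a median GC of 47.2% and a median of 4 CpG in the 305 genes, 49.8% and 5 in the 218 genes of windows called at all 5 stages, and 59.6% and 14 over 20140 protein-coding genes whose 250 bases were fully determined. At least 10 CpG were found in 97 of the 305 (31.8%) and in 60.5% of all, and none in 16.7% against 3.69%. Genes differed among themselves, as those of the longest gene in each of the 3 longest stretches show, given 5′ to 3′ on the strand of the gene with each CpG in capitals.
CDH12, minus strand, chr5:22853454-22853703: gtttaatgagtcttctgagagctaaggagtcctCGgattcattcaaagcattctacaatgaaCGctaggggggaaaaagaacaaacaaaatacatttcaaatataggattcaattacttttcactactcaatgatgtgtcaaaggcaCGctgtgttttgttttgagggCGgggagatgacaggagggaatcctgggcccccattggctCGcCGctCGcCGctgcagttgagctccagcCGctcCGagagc
ADGRL3, plus strand, chr4:62065794-62066043: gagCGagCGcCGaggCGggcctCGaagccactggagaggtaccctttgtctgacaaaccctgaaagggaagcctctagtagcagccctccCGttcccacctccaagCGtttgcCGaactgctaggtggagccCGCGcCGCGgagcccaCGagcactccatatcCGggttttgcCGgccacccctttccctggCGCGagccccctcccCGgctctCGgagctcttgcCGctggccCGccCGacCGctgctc
PCDH11X, plus strand, chrX:91034010-91034259: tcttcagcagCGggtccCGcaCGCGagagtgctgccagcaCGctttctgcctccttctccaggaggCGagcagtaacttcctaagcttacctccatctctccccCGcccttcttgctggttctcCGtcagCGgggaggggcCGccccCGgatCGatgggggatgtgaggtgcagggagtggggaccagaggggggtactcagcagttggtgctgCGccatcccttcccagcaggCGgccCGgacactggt
They held 10, 23 and 15 CpG, and their GC was 48%, 68% and 65.6%. All 3 were thus above the median of the 305 in both, and the low CpG content of the stretches around them did not extend to these starts.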

How the data were processed

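Lamin-B1 cTSA-seq was measured in HCT116 cells at 5 stages and unsorted, and in K562 cells. Per the study's methods and the submitters' processing notes, the authors aligned reads to hg19 (Bowtie2 2.3.2), counted them in windows (bedtools 2.26.0), divided pull-down by input on a log2 scale, z-transformed that value and ran a 3-state Hidden Markov Model, whose strongest state gave the regions. Per the methods, calls of replicates were intersected. The lists for G1, S, G2 and the unsorted samples are named consensus lists, and those of the release samples do not carry that name. The deposited values in the lists used here are region starts and ends in bp, with no signal, count or depth. Signal files were not used here.

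The 14 lists were placed on windows of 100 kb. All region ends fell on window borders or chromosome ends. Left out were 1 mitochondrial region (50000 cells) and 1 region on an unplaced sequence (nonLADs). GC, CpG and sequences were read from hg19, and genes from GENCODE 44 mapped to hg19 (20163 protein-coding genes). A gene was inside a set with at least 80% of its length there. Shares over all windows used those with at most 50% undetermined bases. The centromere was the largest sequence gap of a chromosome. On chromosome 21 it was the gap next to the long arm.

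Named were the genes of the 5 longest stretches (up to 4 each, by length), the 10 longest genes, the longest runs missing from bulk or in the K562 nonLAD list, and up to 4 genes of each family. The members, the lists of families and these rules were chosen with earlier results of these data known. No test was made, since each stage has 1 merged list. The code was tested on simulated lists with known members. Python 3.11.15 with pandas 2.3.3 and numpy 2.4.6 was used. Mouse tissue, RPE1, senescence and SLAM-seq data were not used here. Some genes that these rules name are not reported here.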

Additional observations from a re-analysis of the deposited data

How the results depend on the processing

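The 7 values that describe the windows were recomputed on autosomes only, without windows of over 50% undetermined bases, with 90m G1 regions joined over gaps of up to 500 kb, for members at least 500 kb from a window called in 90m G1, for stretches of at least 500 kb, and with calls in 180m G1 and G1 only. With the alternatives for genes and K562 this gave 45 values, of which 41 stayed within the 95% binomial or counting interval of the main value or, for the number of windows, within 1.5 times. Joining the 90m G1 regions changed no member and so none of the 7 values. Leaving out windows of over 50% undetermined bases kept 3077 of the 3078 members. Values under these settings could hardly move, and their place among the 41 says little. The intervals cover counting of windows only. The share of stable windows absent at 90 min was 62.2% with members at least 500 kb from a 90m G1 call and 62.7% with stretches of at least 500 kb, because both settings drop members. The share called in HCT116 bulk was 97.8% with calls in 180m G1 and G1 only, and the share called in K562 was 86.8% with the TSA-seq list in place of the cTSA-seq list. In these 2 the cause was not tested.

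Leaving out each of 22 chromosomes in turn, the number of windows was 2736 to 3067, the share absent 64.6% to 67.5%, median GC 36.46% to 36.59%, median distance to the chromosome end 37.6 to 45.2 Mb, genes per Mb 0.840 (without chromosome 11) to 1.03, the share in bulk 98.3% to 98.7% and the share in K562 89.1% to 90.3%. The median distance left the interval of its main value in 6 of the 22 cases, and the share absent and the genes per Mb in 1 each. No paired analysis was possible because each list already merges its replicates. Without signal or depth in the lists, a window just under the strong state at 90 min cannot be told from one far under it.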
